A study of Mus musculus with 2 samples.

Results

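The genes described here are protein-coding genes on the autosomes that carried trimethylated histone H3 lysine 4 (H3K4me3) at transcript starts lying far apart, in group 2 innate lymphoid cells (ILC2s) of the mouse lung. They were selected on the peak list of offspring of control mothers. A gene was a member when at least 2 starts of its protein-coding transcripts, in the GENCODE vM21 annotation of GRCm38, were more than 5000 bp apart, each lay within 500 bp of a peak, and no start of another gene lay within 1000 bp of them. Such starts were joined into start groups, a new group opening where a start lay over 5000 bp downstream of the first start of the group before it. Of 20722 autosomal protein-coding genes, 4789 had coding starts this far apart and 3865 had them clear of other genes. Among these, 2012 had a peak at 1 or more of the clear starts, and 129 genes were members, with 265 start groups. There were 122 genes with 2 start groups, called the upstream and the downstream start below, and 7 genes with 3. In the whole genome 7014 genes had at least 1 marked start group by the same distances, 7150 groups in all, of which 6885 belonged to genes with a single one.

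H3K4me3 was profiled by CATCH-seq, which adapts native ChIP to few cells by digesting unfixed chromatin with micrococcal nuclease and adding carrier DNA. Each of the 2 libraries came from about 3000 lung ILC2s of 8-week-old offspring. Control mothers were sensitized intraperitoneally on days -21 and -7 with PBS and 25 µL of alum, mated with untreated males and given PBS intranasally between days 4 and 17 of gestation. Asthmatic mothers were treated on the same days, with 100 µg of ovalbumin (OVA) added to the alum and 500 µg of OVA given intranasally. The offspring themselves are labelled with no treatment. There was 1 library per group, so no difference between the groups could be tested, and the intervals given below are exact Clopper-Pearson 95% intervals that cover counting error only. The lists held 42126 peaks for the control group and 51610 for the other. The study's reporting summary answers that peaks were not called and quality was not checked for this assay, so how the lists were made is not known here. Their folds and q-values are not scaled between libraries, and the numbers of reads are not in the lists, so the part of depth in any difference was not tested. By the same 500 bp, 4 of 11 ILC2 markers were marked in offspring of control mothers (Il1rl1, Id2, Il2ra and Areg) and 3 of 11 in those of asthmatic mothers. The defining factors Gata3 and Rora were among the ILC2 markers without one. None of 7 T cell, 4 B cell, 5 macrophage and 4 fibroblast markers had a start peak in either list. In offspring of control mothers Epcam and Cdh1, of 6 epithelial markers, and Kdr, of 4 endothelial markers, had one, and none of these 10 had one in offspring of asthmatic mothers.

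Many mammalian genes can begin their transcripts at more than 1 promoter, and the nucleosomes that flank a promoter in use normally carry H3K4me3. Transcripts from distant promoters differ in their leader, and often in the start codon and so in the protein's first residues. In lymphocytes such pairs of promoters are known for transcription factors of the Runx and Nfat families and for the glucocorticoid receptor gene Nr3c1. H3K4me3 is deposited most readily at promoters rich in CpG dinucleotides, which recruit the methyltransferase complexes.

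The starts of 4 genes show the contrast that the rest of the text measures. These genes had a peak at both starts in offspring of control mothers and at 1 of them in offspring of asthmatic mothers, and in each class, marked upstream or marked downstream, they were the 2 with the strongest control peak at the start that lacked one. For each start, 150 bases upstream are given from GRCm38, 5′ to 3′ in the gene's direction, with every CpG in capitals. They end directly before the start, except that 30 bases were skipped at the upstream start of Prkacb, 8 at that of Hlcs and 165 at the downstream start of Lrif1 to keep clear of annotated exons. Chd8 and Prkacb were marked at the upstream start in both libraries, and Hlcs and Lrif1 at the downstream start.
Chd8 upstream start (chr14:52257781-52257930, minus strand): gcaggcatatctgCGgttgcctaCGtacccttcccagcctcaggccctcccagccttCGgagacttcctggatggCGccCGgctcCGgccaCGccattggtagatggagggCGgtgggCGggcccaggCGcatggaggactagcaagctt
Chd8 downstream start (chr14:52244510-52244659, minus strand): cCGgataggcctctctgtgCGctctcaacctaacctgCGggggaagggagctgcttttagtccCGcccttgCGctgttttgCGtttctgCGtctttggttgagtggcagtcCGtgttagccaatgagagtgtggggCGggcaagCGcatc
Prkacb upstream start (chr3:146812991-146813140, minus strand): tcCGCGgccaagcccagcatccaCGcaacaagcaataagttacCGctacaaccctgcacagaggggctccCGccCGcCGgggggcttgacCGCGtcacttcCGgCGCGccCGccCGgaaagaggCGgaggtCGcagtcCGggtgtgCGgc
Prkacb downstream start (chr3:146781417-146781566, minus strand): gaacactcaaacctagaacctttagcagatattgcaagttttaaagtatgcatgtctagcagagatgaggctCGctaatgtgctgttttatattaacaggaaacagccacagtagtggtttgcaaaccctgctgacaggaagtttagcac
Hlcs upstream start (chr16:94313572-94313721, minus strand): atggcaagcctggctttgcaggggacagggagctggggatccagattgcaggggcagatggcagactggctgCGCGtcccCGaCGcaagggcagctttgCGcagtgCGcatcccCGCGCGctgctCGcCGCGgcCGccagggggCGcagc
Hlcs downstream start (chr16:94290287-94290436, minus strand): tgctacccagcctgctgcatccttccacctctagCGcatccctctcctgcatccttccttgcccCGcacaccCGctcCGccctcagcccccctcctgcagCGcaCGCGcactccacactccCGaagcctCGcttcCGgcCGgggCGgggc
Lrif1 upstream start (chr3:106684837-106684986, plus strand): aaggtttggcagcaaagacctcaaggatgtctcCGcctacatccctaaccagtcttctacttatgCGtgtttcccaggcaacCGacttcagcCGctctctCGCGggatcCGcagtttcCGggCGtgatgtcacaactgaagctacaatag
Lrif1 downstream start (chr3:106721578-106721727, plus strand): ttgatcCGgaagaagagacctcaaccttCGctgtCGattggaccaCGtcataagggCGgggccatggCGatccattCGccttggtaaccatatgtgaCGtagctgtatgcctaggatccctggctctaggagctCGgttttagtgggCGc

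Chd8, an ATP-dependent chromatin remodeller, held 10 CpGs in each of these stretches, and only its upstream start was marked in both libraries. The stretches lie before the starts, and a mark is called at the start, not on the stretch. The pair at Prkacb, which encodes a catalytic subunit of protein kinase A, was unequal. Its upstream stretch had 18 CpGs and a GC content of 70.0%, and the downstream stretch had 1 CpG and 41.3%. At Hlcs, whose enzyme attaches biotin to carboxylases, the upstream stretch without a peak in offspring of asthmatic mothers held 14 CpGs and the downstream stretch with one held 12. At Lrif1, which encodes a nuclear receptor-interacting factor, the counts were 9 and 10. The sequences thus span an AT-rich start in Prkacb and near-equal CpG counts in Chd8, Hlcs and Lrif1.

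In offspring of asthmatic mothers 162 of the 265 start groups had a peak within 500 bp, 61.1% (55.0 to 67.0%). The share over all 7150 marked start groups was 78.0%, and over the 6885 single ones 78.7% (77.7 to 79.6%). Every start group of the gene was marked in both libraries in 49 of 129 genes, 38.0% (29.6 to 46.9%), and none was marked in offspring of asthmatic mothers in 19, 14.7% (9.11 to 22.0%). Of the 122 genes with 2 start groups, 48 had a peak at both (39.3%), 38 at the upstream start only (31.1%), 17 at the downstream start only (13.9%) and 19 at neither (15.6%). Among the 55 genes marked at 1 start, the upstream one carried the peak in 69.1% (55.2 to 80.9%). The point values of both turned in direction when each list was limited to its 10000 peaks of highest −log10 p. Then 26 genes were members, 30.8% of their 52 start groups were marked in both libraries, beside 25.3% of single groups, and the upstream start carried the peak in 4 of 12 genes marked at 1 start. No intervals were computed for these small counts. Taken start by start, 86 of 122 upstream starts (70.5%, 61.6 to 78.4%) and 65 of 122 downstream starts (53.3%, 44.0 to 62.4%) were marked in offspring of asthmatic mothers.

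**Figure D1:**
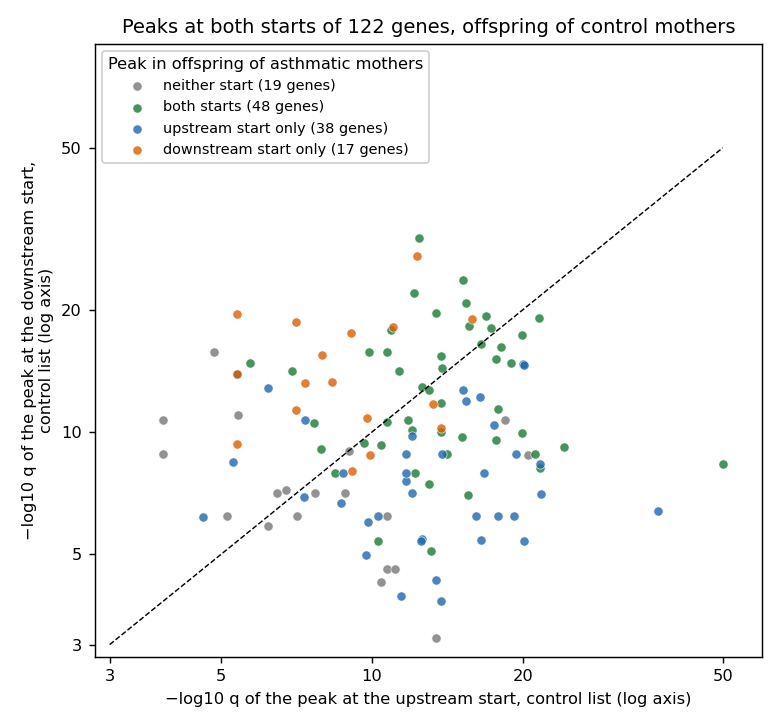
Each point is 1 of the 122 genes with 2 start groups, at the −log10 q of the control-list peak of its upstream start (x, log axis) and of its downstream start (y, log axis), coloured by which starts were marked in offspring of asthmatic mothers; the dashed line marks equal values. Genes marked at the upstream start only lie mostly below the line (33 of 38) and those marked at the downstream start only mostly above it (13 of 17).

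The peaks that chose the members were weaker than those of other genes. The −log10 q in the control list, used here to rank peaks within a library, had a median of 10.7 over the 265 member groups (range 3.12 to 50.1) and 13.7 over the single groups. Median deposited fold was 6.35 against 7.24, and median peak width 516 bp against 533 bp. These values come from the list that defined the members and are given as a description. All 7150 groups were therefore cut into 4 parts by this −log10 q, and the shares were read in each part. In the strongest part (17.5 to 127) 36 of 38 member groups were marked in offspring of asthmatic mothers, 94.7% (82.3 to 99.4%), beside 96.9% of single groups. In the next part (13.6 to 17.5) it was 40 of 47, 85.1% (71.7 to 93.8%), beside 92.2%. Between 9.76 and 13.6 it was 46 of 69, 66.7% (54.3 to 77.6%), beside 79.4% (77.4 to 81.3%). In the weakest part (2.45 to 9.76), which held 111 of the 265 member groups, it was 40 of 111, 36.0% (27.1 to 45.7%), beside 44.3% (41.9 to 46.7%). The member share lay below the single share in each of the 4 parts, and the 2 intervals overlapped in each.

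**Figure D2:**
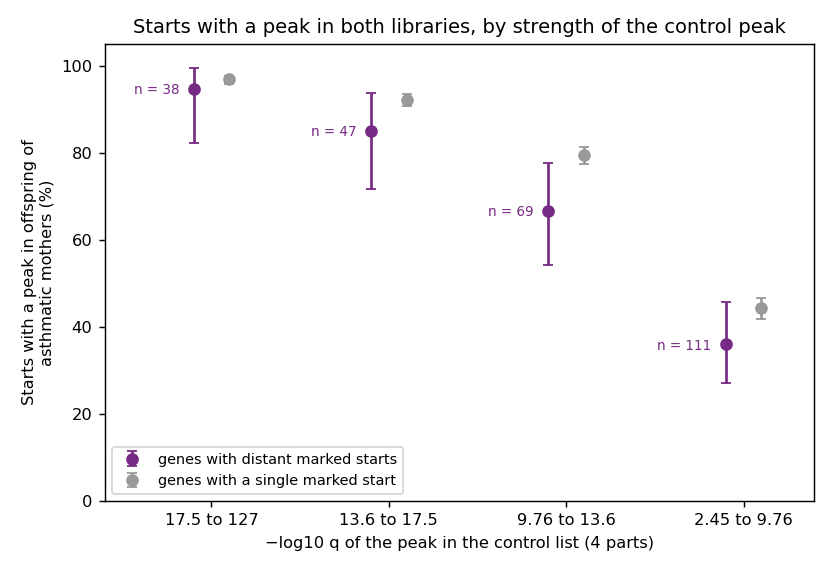
Share of start groups with a peak in offspring of asthmatic mothers (y, %) in 4 parts of the control-list −log10 q (x), for genes with distant marked starts (purple, number of groups beside each point) and genes with a single marked start group (grey); bars are exact 95% intervals for counting error only. Both series fall from the strongest part to the weakest, from 94.7 to 36.0% and from 96.9 to 44.3%.

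Within a gene, the start with the stronger control peak was the one more often marked in both libraries. Of the 122 pairs, 94 stronger starts (77.0%, 68.6 to 84.2%) and 57 weaker starts (46.7%, 37.6 to 56.0%) were marked in offspring of asthmatic mothers. In 46 of the 55 genes marked at 1 start this was the start with the higher control −log10 q. The 9 exceptions were Dgkh, Fis1, Ptprs, Tiam1 and Zbtb7c among genes marked upstream, and Lrif1, Nr3c1, Rassf5 and Taok3 among those marked downstream. The widest gap was at Tiam1, whose upstream peak had a control −log10 q of 5.39 and whose downstream peak, absent in offspring of asthmatic mothers, had 13.9. Upstream starts were also the stronger ones in 77 of 122 genes. Their median −log10 q was 12.1 and their median width 580 bp, against 9.64 and 440 bp at downstream starts. Over the 4 parts of strength, from strongest to weakest, 91.3, 91.7, 73.7 and 40.5% of upstream starts (n = 23, 24, 38 and 37) were marked in offspring of asthmatic mothers. The shares of downstream starts were 100, 78.9, 61.5 and 30.6% (n = 15, 19, 26 and 62), so that the upstream share was the higher one in 3 of the 4 parts, with overlapping intervals in all.

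The sequence around the start was read in 300 bp centred on it. In groups with several starts, the start nearest the strongest control peak was used, so the control list entered the choice of window. Median GC content was 66.7% over the 265 member groups and 67.0% over single groups, and the median ratio of observed to expected CpG was 0.770 against 0.848. A window was called CpG-rich when GC content was at least 50% and this ratio at least 0.6. This held for 189 member groups, 71.3%, beside 85.3% of single groups. Upstream starts were CpG-rich in 82.8% and downstream starts in 62.3% of the 122 genes, with median GC contents of 69.2 and 63.7%. In offspring of asthmatic mothers 129 of 189 CpG-rich member groups had a peak, 68.3% (61.1 to 74.8%), and 33 of 76 CpG-poor ones, 43.4% (32.1 to 55.3%). For single groups the shares were 81.3% and 63.7%. CpG-rich starts were also the stronger ones in the control list (median −log10 q 12.0 against 8.84), and the shares were therefore also read within the parts of strength. From the strongest part to the weakest, 32 of 34, 37 of 42, 35 of 49 and 25 of 64 CpG-rich member groups were marked in both libraries, and 4 of 4, 3 of 5, 11 of 20 and 15 of 47 CpG-poor ones. In the weakest part these shares were 39.1% (27.1 to 52.1%) and 31.9% (19.1 to 47.1%). The CpG-rich share was the higher one in 3 of the 4 parts, and the intervals overlapped in all. For the more numerous single groups the CpG-rich and CpG-poor shares were 97.0 and 95.8%, 92.7 and 87.3%, 81.5 and 67.4%, and 47.4 and 34.0% over the same parts, with intervals that overlapped in the 2 stronger parts and not in the 2 weaker ones.

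In the 55 genes marked at 1 start, the start with a peak in both libraries had the higher GC content in 42, 76.4% (63.0 to 86.8%), and the higher CpG ratio in 43, 78.2% (65.0 to 88.2%). The count differed between the classes, a difference that was not tested. Where the upstream start was marked it had the higher GC content in 33 of 38 genes, 86.8% (71.9 to 95.6%), and where the downstream start was marked it did so in 9 of 17, 52.9% (27.8 to 77.0%). Over all 122 genes the upstream start had the higher GC content in 81 and the lower in 39, with 2 ties. Repeat-masked bases did not order the pairs in the same way, being more frequent at the start with a peak in 21 genes and less frequent in 22, with 12 ties.

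**Figure D3:**
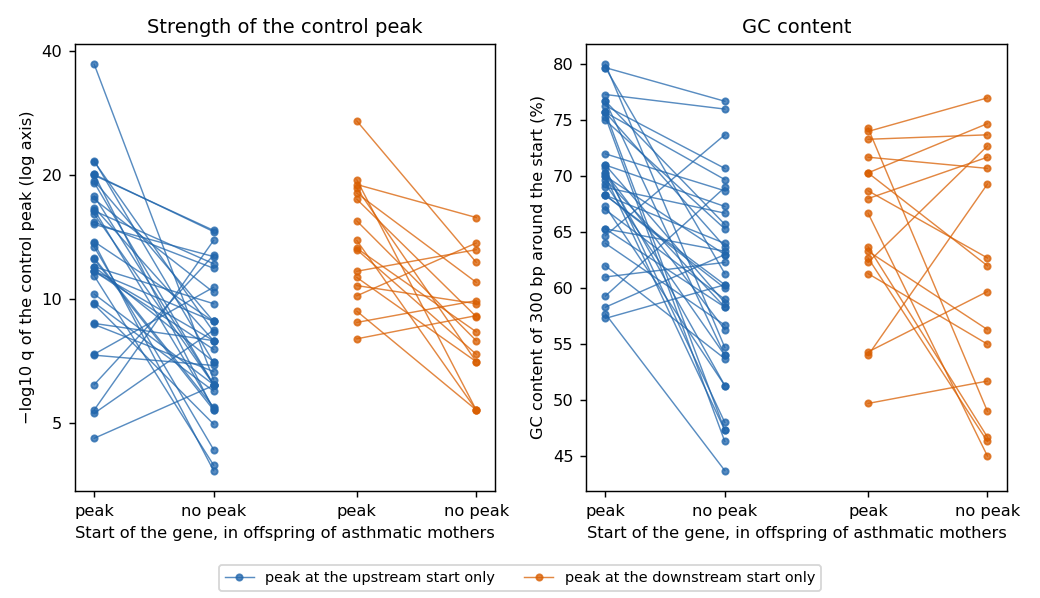
Lines join the starts of each of the 55 genes marked at 1 start in offspring of asthmatic mothers, the start with a peak on the left and the start without on the right, for 38 genes marked upstream (blue) and 17 marked downstream (orange); y is the control-list −log10 q (left, log axis) and the GC content of 300 bp (right, %). Most blue lines fall in both panels, and the orange lines fall in 13 of 17 genes on the left and in 9 of 17 on the right.

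Short promoter motifs were searched on both strands of the same 300 bp. The GC box GGGCGG, bound by Sp1-type factors, was in 71.7% of member windows and 73.5% of all windows, in 79.0% of member windows with a peak in both libraries and in 60.2% of those without one in offspring of asthmatic mothers. The motif itself contains a CpG, and these member windows were CpG-rich in 79.6 and 58.3%. The motif shares were not read within classes of CpG content or peak strength. CCAAT, the NF-Y motif, was in 27.5% of member windows and 31.1% of all, and TATAAA in 4.15 and 3.17%. Between member windows with and without a peak in offspring of asthmatic mothers these shares were 27.2 and 28.2% for CCAAT and 3.09 and 5.83% for TATAAA. The full cAMP response element TGACGTCA, the site of CREB and CREM, was in 5 member windows (1.89%, against 3.08% of all, and 1.85 and 1.94% in windows with and without that peak): the downstream starts of Abcg2, Crem and Nr4a2 and the upstream starts of Osbpl9 and Ptprs. Crem, whose downstream promoter is the classical source of the inducible repressor ICER, and Abcg2 had no peak at that start in offspring of asthmatic mothers. A match is a run of letters and not a measured binding site.

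The starts without a peak in offspring of asthmatic mothers were mostly far from any peak of that library. For the 103 such groups the nearest peak was at a median of 23291 bp (range 556 to 113142 bp), beside 19937 bp for single groups without one. It lay within 1000 bp for 8 of them, over 1000 and up to 5000 bp away for 8, over 5000 and up to 20000 bp for 33 and beyond that for 54. The 8 nearest included the downstream starts of Map2k2 (638 bp), Mark2 (718 bp) and Kdm2b (586 bp), so that at these starts the absence depends on the 500 bp limit. In 6 of the 103 groups (5.83%, beside 3.81% of single ones) the control peak that marked the start overlapped a peak of the other library lying farther out, in Elmsan1, Kdm2b, Map2k2, Nol4l, Nr4a1 and Sept9. In 9 of the 162 groups marked in both libraries (5.56%, beside 3.84%) the strongest peaks of the lists, whose values are given here, did not overlap each other. These groups belonged to Ece1, Fam110a, Foxp1, Mgat1, Mia3, Mpp7, Phf21a, Tcf4 and Zfp781. At the 162 starts marked in both libraries the peak was narrower in offspring of asthmatic mothers at 148, 91.4%, with median widths of 618 and 346 bp. Single groups showed the same narrowing, at 92.7% and with medians of 579 and 351 bp, so it was not particular to these genes. The limits of the rule were near for a few genes. Kmt5a and Rnf44 entered with starts 5563 and 5633 bp apart, and Set and Myo1c stayed out at 4702 and 4688 bp. Crem and Map2k2 had peaks 485 and 464 bp from a start and Abr and Cpeb3 lay outside at 503 and 532 bp. Crem and Chd8 entered with another gene's start at 1010 and 1031 bp, and Abl1 and Hnrnpf were left out at 996 and 969 bp.

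Distances between the starts ran from 5563 to 753300 bp, with a median of 34224 bp. The median was 58606 bp in genes marked at both starts in both libraries, 32843 bp in those marked upstream only, 16761 bp in those marked downstream only and 24952 bp in those marked at neither. The ranges of the 4 classes overlapped. The downstream start lay in intron 1 of a transcript from the upstream start in 63 of 122 genes, in a later intron in 47, in an exon in 6 and beyond the upstream transcripts in 6. The annotated transcripts of both starts had different start codons in 79 of 122 genes and shared one in 40. A different start codon was found in 27 of 48 genes marked at both starts, 25 of 38 marked upstream only, 14 of 17 marked downstream only and 13 of 19 marked at neither. The upstream start was the most 5′ coding start of the gene in 99 of 122.

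**Figure D4:**
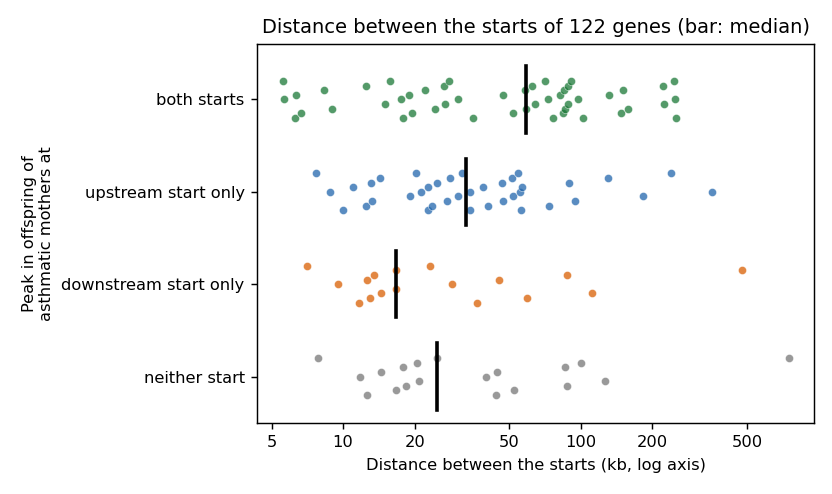
Each point is 1 of the 122 genes with 2 start groups, at the distance between its starts (x, kb, log axis), in rows by which starts were marked in offspring of asthmatic mothers; vertical bars are medians and the scatter within a row has no meaning. The 4 rows overlap, with the median lowest for genes marked at the downstream start only.

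Ranked by the weaker of their 2 control peaks, the top genes marked at both starts in both libraries were Sertad2, Osbpl9, Rbms1, Rnf44, Ssh2, Prickle1, Mia3 and Mpp7. Sertad2, a transcriptional coregulator, had control −log10 q values of 21.5 upstream and 19.1 downstream over 88645 bp (chr11:20543334 and chr11:20631979, plus strand), and values of 7.74 and 9.00 in the other library. Osbpl9, an oxysterol-binding protein relative, had 19.9 and 17.3, and 13.5 and 14.7 in offspring of asthmatic mothers. At the RNA-binding protein gene Rbms1 the upstream start had 17.3 and a slightly stronger one lay downstream, with 11.0 and 6.86 in the other library. In the control list each of these starts lay above the member median of 10.7. The cofilin phosphatase gene Ssh2 had control values that both rounded to 16.5, at starts 131995 bp apart, and 8.65 and 4.38 in the other library. Mia3, needed for collagen export from the endoplasmic reticulum, had 15.6 and 18.2, then 12.5 and 12.0. Its downstream values belong to separate peaks: where the control list had 18.2 the other list had 6.71, and where the other had 12.0 the control list had 13.7. Rnf44, with starts 5633 bp apart, had 16.9 and 19.3, then 13.2 and 8.94. Prickle1, a planar polarity gene, had 18.1 and 16.2, then 6.00 and 12.7. Mpp7, a scaffold protein gene, had 15.4 and 20.8, then 4.56 and 29.9, with strongest peaks that did not overlap at the upstream start and a downstream window that was repeat-masked to 100%. Among the 48 genes, the stronger start was the same one in both libraries in 26 of 47 (55.3%) with 1 tie, close to an even split.

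Among genes marked at the upstream start only, Chd8 had control peaks of −log10 q 20.0 upstream (chr14:52257355-52257798) and 14.7 downstream (chr14:52244086-52244531), with a shared start codon. In offspring of asthmatic mothers the upstream peak had 6.00 and the nearest peak to the downstream start was 12878 bp away. Prkacb had 20.1 upstream (chr3:146812351-146813370) and 14.6 downstream (chr3:146781143-146781425), where transcripts have a different start codon, and the upstream peak had 6.86 in the other library. These are the pairs whose sequences are printed above. Frmd4b, a scaffold with a FERM domain, had 15.2 and 12.7, and its downstream start was 113142 bp from any peak of the other library. Mark2, a microtubule-affinity kinase, had 16.4 and 12.2, and Map2k2, the MAP kinase kinase MEK2, had 15.4 and 11.9. The downstream control peak of Map2k2 lay 464 to 911 bp from the start and enclosed a peak of the other library at 638 to 853 bp with a −log10 q of 15.1, against 5.50 at its upstream start, so the absence there is one within 500 bp only. At Tiam1 (5.39 and 13.9), an activator of Rac, at Fis1 (6.21 and 12.8), a mitochondrial fission factor, and at Dgkh (7.36 and 10.7), a diacylglycerol kinase, the start without a peak was the stronger one in offspring of control mothers.

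Genes marked at the downstream start only were led by Hlcs, with control values of 15.8 upstream (chr16:94313325-94313586) and 19.0 downstream (chr16:94289751-94290341) and 7.52 at the downstream start in offspring of asthmatic mothers. Lrif1 had 13.7 upstream (chr3:106684985-106685275) and 10.2 downstream (chr3:106721849-106722454), and 7.74 downstream in the other library. Atp6v0e, a subunit of the vacuolar proton pump, had 12.3 and 27.1, and 14.0 downstream in the other library, the strongest of these 8. Rasgef1b, an exchange factor of the Ras family, had 11.0 and 18.1 over 476135 bp. Nfkbiz, which encodes the cytokine-induced nuclear protein IκBζ, had 9.76 and 10.8, and 6.50 downstream in the other library. At Nr3c1, the glucocorticoid receptor, the control peaks had 9.93 upstream, 427 bp from the start, and 8.79 downstream. In offspring of asthmatic mothers its downstream start had 6.59, and the upstream start was 28744 bp from any peak. GC content was 49.0% upstream and 74.3% downstream, and both starts lead to the same start codon. Taok3, a kinase of the TAO family, had 13.2 and 11.7, and Rassf5, a Ras and Rap effector of lymphocyte adhesion, 9.13 and 8.02.

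**Figure D5:**
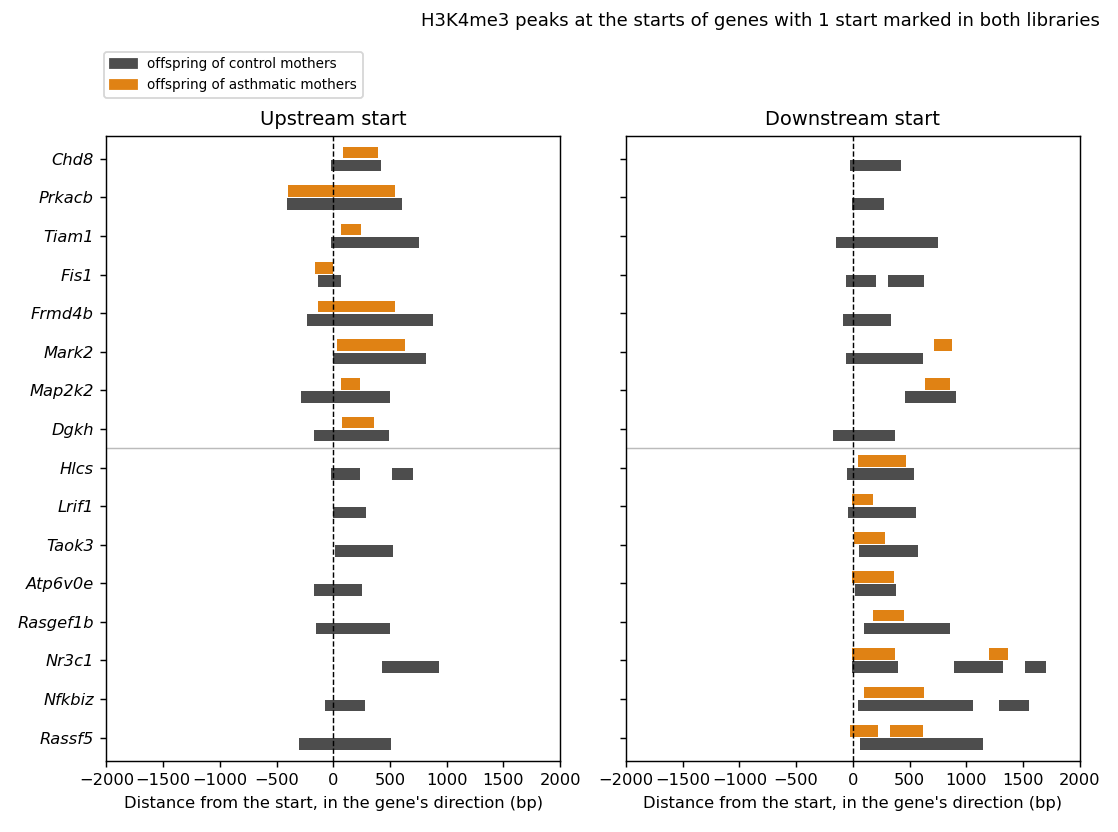
Peaks within 2000 bp of the upstream (left) and downstream (right) start of the 16 named genes marked at 1 start in offspring of asthmatic mothers, drawn to scale along the distance from the start in the gene's direction (x, bp), in offspring of control (dark) and asthmatic (orange) mothers; the grey line parts genes marked upstream (top 8) from those marked downstream. Orange bars are missing near the other start, except that Mark2 and Map2k2 have one just beyond 500 bp.

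Genes marked at neither start in offspring of asthmatic mothers had both peaks in offspring of control mothers, some of them strong. Fam222b had control values of 18.4 and 10.7. Cic, a transcriptional repressor downstream of receptor tyrosine kinases, had 20.5 and 8.79, and its nearest peaks in the other library were 10015 and 3546 bp away. Atxn7l1 had values that rounded to 8.98 at both starts, Usp2, a deubiquitinase, 8.84 and 7.06, and Abcg2, an efflux transporter, 7.71 and 7.06. At Wipf1, which stabilises the actin regulator WASP, they were 6.74 and 7.19. The values of Ndrg4 were 6.47 and 7.06, and those of the Hedgehog receptor Ptch1 were 7.09 and 6.22. Apart from the upstream start of Cic and both starts of Fam222b, these peaks lay in the weakest part of strength, where 36.0% of member groups were marked in both libraries.

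The 7 genes with 3 start groups gave 1 complete case. Rai1, a chromatin-associated factor, had control values of 14.6, 7.47 and 9.21 from upstream to downstream and peaks of 8.68, 3.62 and 9.50 in offspring of asthmatic mothers. Foxp1, a forkhead factor of lymphocyte quiescence, had 10.7, 5.19 and 7.99, and only the most downstream start, 492220 bp from the most upstream, was marked in both libraries. Rara, a retinoic acid receptor, had 11.5, 6.22 and 10.4, with only the most upstream start marked in both. Specc1 had 13.8, 3.60 and 15.7, with again only the most upstream one, although the most downstream was stronger in offspring of control mothers. Sept9, a septin, had 6.21, 13.6 and 9.51, and only the middle start was marked in both. Rreb1, a Ras-responsive zinc finger factor, had 7.94, 16.6 and 7.06, with the middle and the most downstream marked in both. Fry had 7.94, 11.7 and 7.06, and here the middle start, the strongest in offspring of control mothers and CpG-poor with a GC content of 46.0%, was the one without a peak in the other library.

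Lists of genes with known roles placed 23 different genes among the 129. Their counts stand beside a background of 129 members among 3865 genes with clear distant starts, 3.34%, and of 61.1% of member groups marked in both libraries. Only 2012 of the 3865 had a control peak at a clear start, so this background includes many genes without a mark there. Of 45 textbook genes with alternative promoters found in the annotation, 32 had clear distant starts and 3 were members (9.38%). Dnmt3a, the de novo DNA methyltransferase, was marked at both starts in both libraries (control 7.93 and 9.10, other library 8.91 and 4.31), Nr3c1 at the downstream start and Ptch1 at neither. After starts near those of other genes were left out, Runx1, Runx2 and Runx3 each had 1 marked start group in offspring of control mothers, and Gata3 had none. With all starts counted, 5 of the 9 coding starts of Runx2 were marked. Of 80 lymphocyte transcription factors, 24 had clear distant starts and 6 were members (25.0%), with 6 of their 13 start groups marked in both libraries and a median control −log10 q of 9.72, against 10.7 over all member groups. Stat5b, which transmits IL-2 and IL-7 signals, had 21.7 upstream (chr11:100849909-100850876) and 7.03 downstream, and its upstream peak had 14.1 in offspring of asthmatic mothers while the downstream start was 27555 bp from any peak. Crem was marked upstream only (9.72 and 4.98 in the control list). Tcf4, an E protein, was marked at both (11.3 and 14.1). At its upstream group the peak of the other library did not overlap the strongest control peak. The summit of that other peak lay 2544 bp from the start nearest the control peak. Nr4a1, an immediate-early nuclear receptor, had 4.84 and 15.7 and neither was marked in offspring of asthmatic mothers, where the nearest peak to its downstream start was 1352 bp away. Its downstream control peak overlapped a peak of that library lying farther out, so the absence there is one within 500 bp only.

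Of 74 regulators of small GTPases, 41 had clear distant starts and 4 were members (9.76%), with 6 of 8 start groups marked in both libraries and a median of 11.3. Arhgef3, a guanine nucleotide exchange factor, and Tbc1d1, a Rab GTPase activator, were marked at both starts, and Elmo1, a partner of Dock proteins (16.7 and 7.94 in the control list), and Tiam1 upstream only. Of 85 kinases, phosphatases and related enzymes of lymphocyte signalling, 39 had clear distant starts and 3 were members (7.69%), with 2 of 6 groups marked in both and a median of 5.80. Pik3r1, the regulatory subunit of PI3 kinase, was marked upstream (13.4, and 8.53 in the other library) and not at its downstream start (4.32). Sgk1, a kinase induced by glucocorticoids, was marked at its downstream start (9.36, and 8.39 in the other library) and not at its upstream start (5.39), and Pde4a, a cAMP phosphodiesterase, at neither (5.14 and 6.21). The lists were chosen with the data known, and counts this small give no ground to set one list apart from another.

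Of 75 chromatin regulators, 44 had clear distant starts and 5 were members (11.4%), with 7 of 10 groups marked in both libraries and a median of 12.3. Dnmt3a, the histone demethylase gene Kdm2a (13.7 and 15.4) and Phf21a were marked at both starts, Chd8 upstream and Kdm2b (5.40 and 11.0) at neither. Both starts of Phf21a lay in windows that were repeat-masked to 77.3 and 85.3%, and at its downstream start the strongest peaks of the lists did not overlap. Of 65 genes of the cytoskeleton and adhesion, 43 had clear distant starts and 4 were members (9.30%), with 6 of 9 groups marked in both and a median of 8.43. The large cytoskeletal linkers Dst (10.3 and 5.39) and Macf1 (8.43 and 7.94) were marked at both starts 224783 and 252524 bp apart, Utrn (12.5 and 5.39) upstream and Sept9 at its middle start. Of 59 lymphocyte surface receptors, 15 had clear distant starts and none was a member.

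The remaining members fall under the same counts. Marked at both starts in both libraries were also Adar, Ahcyl2, Ahdc1, Akap13, Akap7, Ccnd3, Fam110a, Fam49b, Frmd4a, Gatad2a, Gm10717, Hmox2, Jmjd1c, Kansl1, Kmt5a, Litaf, Mgat1, Mgat5, Mrpl48, Mxi1, Nr4a2, Phactr2, Phc2, Ppfibp2, Slc2a3, Srrm2, Tbc1d14, Tmem229b, Tnk2, Tnpo1, Zfp638 and Zfp781. Marked upstream only were also Cntrl, Ece1, Elmsan1, Hip1, Jakmip1, Lrrfip1, Nfyc, Pfkfb3, Ptp4a3, Ptprs, Ralgds, Rarg, Rhebl1, Sbno2, Scp2, Shisa5, Syne1, Synj2, Tecr, Tmcc3, Tpd52, Trim2, Tsc22d1, Unkl and Zbtb7c. The downstream start alone was marked in 1500011B03Rik, Adam12, Bcar1, Kctd1, Mast3, Mrtfa, Osbpl5 and Tank, and neither in Adcy7, Camta1, Cdk14, Chd9, Espn, Nol4l, Prkg1 and Tns1. Among them Litaf had the strongest downstream pair, with 30.0 in the control list and 33.3 in the other. Synj2 had the widest contrast in the control list among genes marked upstream only, with 37.2 at an upstream start whose window was repeat-masked to 61.3%. Slc2a3, a glucose transporter, was marked at both starts (13.7 and 9.99, and 5.17 and 6.71 in the other library), as was Nr4a2, a relative of Nr4a1 (9.64 and 9.40, and 9.59 and 4.38).

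The same rule applied to the list of offspring of asthmatic mothers gave 62 genes with 125 start groups. In offspring of control mothers 114 of these groups, 91.2% (84.8 to 95.5%), had a peak, beside 98.7% of 5536 single groups. In 51 genes, 82.3% (70.5 to 90.8%), every group of this rule was marked in both lists. The groups differ from those of the control list, by which 49 genes were marked at every group. These 51 genes are 82.3% of the members of that rule and 39.5% of the 129 members described here. In each direction, then, genes with distant marked starts had a lower share of starts marked in the other library than genes with a single one, without matching for strength.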

How the data were processed

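H3K4me3 CATCH-seq of lung ILC2s was available as 1 peak list per library. Per the labels and the study's methods the authors trimmed the reads with Trim Galore and Cutadapt, aligned them to GRCm38 (mm10) with Bowtie 2 and removed duplicates. A small volume of chromatin was set aside for input libraries, but whether these entered peak calling, the peak caller and its threshold are not given in the sources used here. The study's reporting summary answers that no peaks were called and no data quality was assessed for the ChIP-seq. For each peak the authors deposited a score, which is the −log10 q multiplied by 10 and rounded down in nearly every line. The deposited fold (read as a ratio of summit signal to a background), −log10 p-value and −log10 q-value were taken as the narrowPeak layout names them, and which background they refer to is not given in the sources used here. These values were used only within a list. All 85577 autosomal peaks lay inside their chromosomes.

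Starts, start codons and exons were taken from GENCODE vM21, and bases and repeat masking from the GRCm38 reference. Starts of every annotated gene, coding or not, counted as other genes' starts. Members of the rule were found in offspring of control mothers, and a start was called marked with a peak within 500 bp. The members and gene lists were chosen with earlier results of these data known. Genes named are the 8 per class with the highest limiting control −log10 q (the lower one where both or neither start was marked, otherwise that of the start without a peak), listed members, genes with 3 start groups and those nearest each limit. Sequences are those of the top 2 genes of each class marked at 1 start. Others named with values (Litaf, Synj2, Slc2a3, Nr4a2, the exceptions in strength and the motif matches) were chosen after their values were seen. With 1 library per group no test was possible. The rule and classes were tested on simulated data, and all 600 planted genes were recovered. Python 3.11.15, numpy 2.4.6, scipy 1.17.1 and matplotlib 3.10.9 were used. The CpG-rich class and the motifs were added after the data were seen. A marker gene is not reported here and was left out of its list.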

Additional observations from a re-analysis of the deposited data

How the results depend on the processing

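No paired analysis was possible because each group had 1 library. Of 53 recomputed values, 43 stayed within the counting interval of the reported value or, for the number of members, within 1.5 times of it. The others were these. With the 10000 peaks of highest −log10 p in each list, 26 genes were members, 30.8% of their start groups were marked in both libraries (25.3% of single groups), 7.69% of genes at every group, and 33.3% of 12 genes marked at 1 start carried the peak upstream. Without the filter on other genes' starts there were 265 members, 71.8% of groups and 52.5% of genes. Read from the list of offspring of asthmatic mothers the shares were 91.2 and 82.3%. With windows of 1000 bp the marked start had the higher GC content in 87.3% of 55 genes. The member share lay below the single share, and the upstream start carried the peak in most genes marked at 1 start, in 11 of 12 settings each. The exception in both cases was the 10000 highest peaks, where the point values lay in the opposite direction and no intervals were computed. The cause was not tested. Without 6 genes with a start in mostly repeat-masked sequence, an alternative chosen after seeing the data, 59.7% of 253 groups were marked in both libraries. The lists hold no read numbers, so whether depth limits the absences was not tested; a start without a peak is only one with no listed peak within 500 bp.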

Other observations

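By the list of offspring of asthmatic mothers, 11 genes had distant marked starts without being members by the control list: Arnt2, Bicra, Eif3b, Mettl27, Ncoa4, Noct, Pak6, Ppig, Snapc1, Src and Zfp457. In 10 of them the start unmarked in offspring of control mothers was the downstream one, and in Pak6, a p21-activated kinase, the upstream one. Src, the founding member of its kinase family, had a −log10 q of 6.10 upstream and 2.35 downstream (chr2:157457169-157457324) in offspring of asthmatic mothers, and 8.73 upstream in offspring of control mothers, where the nearest peak to the downstream start was 32300 bp away. The strongest such downstream peaks were those of Eif3b, a translation initiation factor subunit (15.2), Mettl27 (15.0) and Bicra, a subunit of BAF-type chromatin remodelling complexes (13.2). For Eif3b the nearest peak of offspring of control mothers was 930 bp from the start, and for Bicra 47268 bp. At Noct, a gene under circadian control, and Arnt2, a partner of PAS-domain factors, it was at 1055 and 538 bp. These genes were found in 1 library and have no replicate.

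Of the 265 member start groups, 8 lay in windows that were over 50% repeat-masked, 3.02%, beside 0.494% of single groups. All 8 were marked in both libraries, and 25 of 34 such single groups did. They were both starts of Gm10717 and of Phf21a, the upstream start of Synj2 and the downstream starts of Mpp7, Ppfibp2 and Zfp781. Gm10717 had the lowest folds over background of all members, 1.51 and 1.49 in offspring of control mothers, with GC contents of 36.3 and 36.0%. How reads from repeated copies were treated is not given in the sources used here.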
